A study of Mus musculus with 24 samples.

Results

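The response of mouse blood to 7 Gy of x-rays was measured in animals labelled as Gadd45a knockouts, by comparing blood drawn 24 h after irradiation with blood of unirradiated animals of the same label. The comparison used 14 of the 24 one-colour arrays of the series, chosen by their labels alone: 9 arrays of irradiated animals (7 Gy) and 5 of unirradiated animals (0 Gy), all labelled male, C57BL/6J and Gadd45aKO. The other 10 arrays, 5 at each dose, came from male C57BL/6J animals labelled Gadd45aWT. They were used here to share the estimate of spread and to test differences between the labels and their responses. They also entered the choice of the probes for scaling and for each gene, which drew on all 24 arrays. The labels call the arrays independent experiments and give neither the animals' age nor how the Gadd45a allele was made. Blood was taken by cardiac puncture at euthanasia into a solution that lyses cells and stabilises RNA. Red cells, platelets and every white cell type were therefore measured together, and fewer cells of a type and less RNA per cell cannot be told apart anywhere in these data.

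As background, ionising radiation breaks DNA, and the kinase ATM then stabilises the transcription factor p53, which switches on genes for cell cycle arrest, repair and apoptosis. In blood, B cells and naive T cells die readily after irradiation, granulocytes and platelets last longer, and young red cells stop arriving from the marrow. Gadd45a is itself a p53 target and encodes a small stress protein that binds p21, PCNA and kinases of the p38 pathway. Mice without it develop an autoimmune disease.

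Values are given throughout as array-scaled levels, the log2 of the processed probe signal minus the 75th percentile of 7803 probes that were well above background on all 24 arrays. A level therefore compares arrays for 1 probe and not probes with each other, and differences between doses are log2 differences with their standard error (SE) from a linear model over all 4 groups of arrays. A gene was called when its Benjamini-Hochberg adjusted p from that model (limma) was under 0.05 among 15783 genes.

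The label was checked first. The Gadd45a probe lies at chromosome 6: 66985376-66985435 (mm9, as in the array files), and whether it falls inside the deleted part is not given in the sources used here. Its level on the unirradiated KO-labelled arrays (replicates 1 to 5) was 0.59, 0.30, 0.54, 0.70 and 0.61, and the KO-labelled minus WT difference at 0 Gy was -0.15 ± 0.21 (adjusted p = 0.85). The probe was well above background on all 14 KO-labelled arrays. At 0 Gy the transcript that it detects thus did not separate the genotype labels, and "KO-labelled" below names the label, not a measured loss. At 7 Gy the level ranged from -0.66 to 0.33 (median 0.15), and fell by 0.50 ± 0.19 (SE; adjusted p = 0.032) with overlapping groups. It was not called in 12 of the alternatives, among them when arrays were scaled to their medians (-0.25, adjusted p = 0.31), with the 75th percentile of all probes (-0.18, adjusted p = 0.53) or without the filter on dim probes (adjusted p = 0.098). The fit above gave a change of -1.86 ± 0.20 in the WT arrays. The difference between these responses was 1.36 ± 0.27 (adjusted p = 0.0038).

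Defining blood genes were detected on the KO-labelled arrays of both doses. Leukocyte Ptprc, the globin genes Hbb-b1 and Hba-a1, neutrophil S100a8 and S100a9, T cell Cd3e, platelet Pf4 and monocyte Csf1r were well above background on all 14, and B cell Cd79a on all 5 arrays at 0 Gy and 8 of 9 at 7 Gy. Between 26.5% and 48.7% of probes were well above background at 0 Gy and between 25.9% and 51.4% at 7 Gy. The 75th percentile of the raw processed signal was 44.1 to 107 at 0 Gy and 25.8 to 93.9 at 7 Gy. Replicates 1 to 5 of all 4 groups shared slides 1 to 5, whereas replicates 6 to 9 of the irradiated KO-labelled group were alone on slide 6. Values on that slide were therefore also left out as an alternative, and differences within slides 1 to 5 are given beside results.

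Some arrays stood apart. Unirradiated replicates 1 and 4 differed by less than the spread between repeated spots of 1 array (ratio 0.906) and were averaged and counted as 1 sample, so that n = 4 at 0 Gy and n = 9 at 7 Gy. Irradiated replicates 1, 2, 4 and 8 also lay close together, each within 1.5 times that spread of another of them. Each of them was still counted as a sample in the SE and p-values, and averaging them was an alternative. Unirradiated replicates 2 and 5 carried more signal of liver genes than the other 3: the mean level of 36 hepatocyte genes was -4.63 and -3.67 against -7.25, -6.91 and -7.22. They were also higher in 11 genes of tissue macrophages, a list chosen after the values were seen (-3.29 and -1.95 against -5.70, -5.63 and -5.72). At 7 Gy, replicates 5 and 7 stood above the other 7 in 9 skeletal muscle genes, also chosen afterwards (-1.42 and -1.33, against a highest of -5.08 in replicate 3). Replicate 6 had the lowest B cell and the highest platelet signal of the 9.

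**Figure D1:**
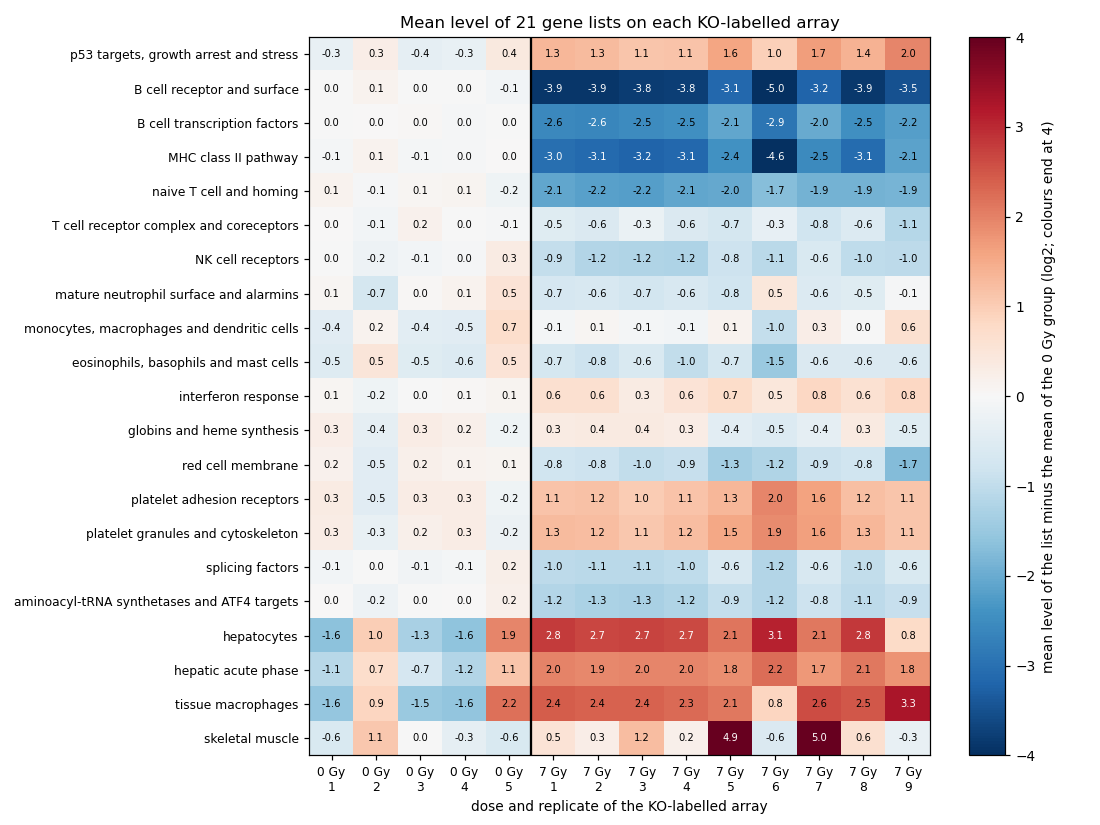
Mean level of 21 gene lists (rows) on the 14 KO-labelled arrays (columns, by dose and replicate), each minus the mean of the 0 Gy group, in log2 units. The B cell receptor row is 3.1 to 5.0 lower on every irradiated array, platelet rows are 1.0 to 2.0 higher, and hepatocyte and tissue macrophage rows also differ among the unirradiated arrays, where replicates 2 and 5 are higher than 1, 3 and 4.

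Of the 15783 genes tested, 1949 were called higher at 7 Gy (12.3%) and 5456 lower (34.6%), together 46.9%. Increases made up 26.3% of the calls, a share that became 38.8% after quantile normalization, 39.6% when arrays were scaled to their medians and 46.7% when the 75th percentile covered all probes. The levels of the 2 groups did not overlap for 3778 genes (23.9%), and the median change over all genes was -0.26, so that a list is read below against that median. The 15 largest increases with no overlap between doses were in Saa2, Gdf15, Cdkn1a, Gstt1, Rarres2, Sult1a1, Saa1, Phlda3, Hspb1, Lrrc8b, Cnn1, Mt1, Psrc1, Ifit3b and Armcx6, with differences from 5.69 down to 2.62. The 15 largest decreases were in Tnfrsf13c, Fcmr, Vpreb3, Fcrla, Ms4a1, Chst3, Nsg2, Ccr6, Fcer2a, Xkrx, Ly6d, Cd79a, Bcl11a, Cxcr5 and Cd79b, from -5.97 to -4.96, and 8 of them belong to the B cell receptor and surface list. With limma's normal-exponential background correction and its offset of 50, 806 genes were called higher and 576 lower. Of the 5456 decreases 570 were then still called and 2683 had the opposite sign, and the median of all genes moved to 0.46. This setting thus moved changes upward and did not only shrink them towards 0. Among the 6753 genes well above background on all arrays, 1220 were higher and 2642 lower. Of the 70 genes named below that fell, 41 were above background on fewer than all 9 irradiated arrays. Their number of arrays is given with them, and the size of such a decrease rests on signal at background. With the normal-exponential correction 34 of the 70 and 6 of the 46 named genes that rose (Gadd45g, Mdm2, Tnfrsf10b, Gzmb, Prtn3 and Alb) were no longer called.

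**Figure D2:**
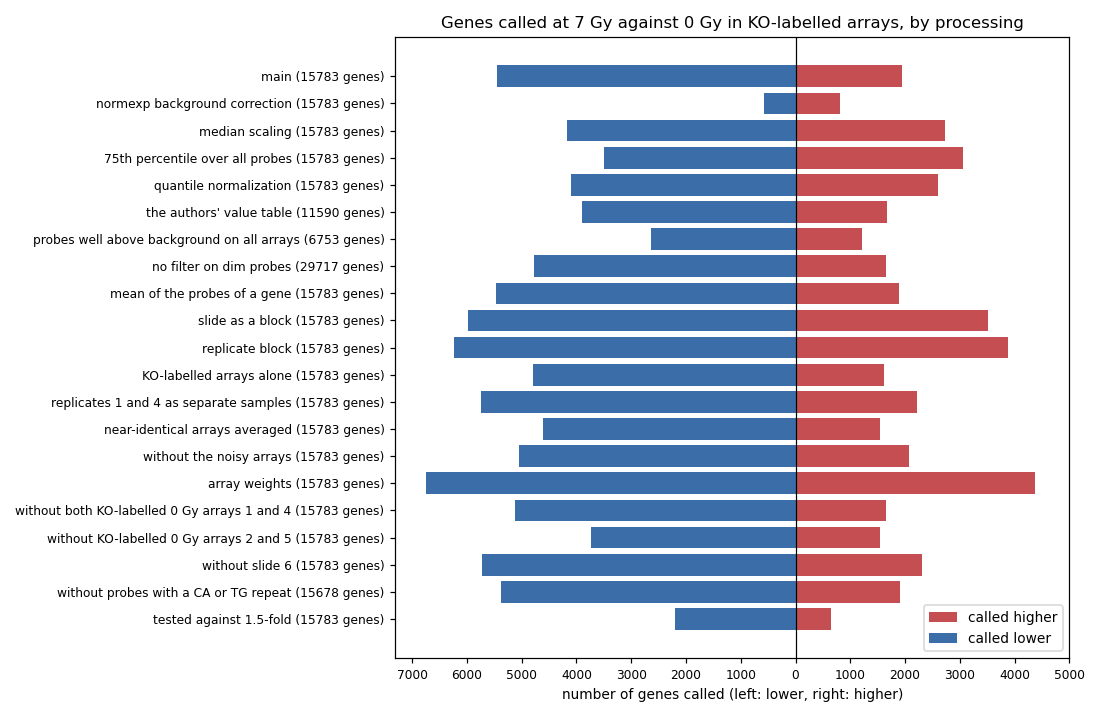
Number of genes called lower (bars to the left) and higher (bars to the right) at 7 Gy in KO-labelled arrays under the processing described (main) and the alternatives, with the number of genes tested in parentheses. Decreases outnumber increases in every setting shown except the normal-exponential background correction, with 806 genes higher and 576 lower.

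Genes that p53 switches on in growth arrest and stress were higher. Of the 21 tested, 14 rose and 4 fell, with a median change of 1.74 against -0.26 for all genes, and within slides the median of the list was 1.04 to 1.62. Cdkn1a, which encodes the cell cycle inhibitor p21, lay at -7.15, -5.24, -7.50, -7.20 and -5.32 on the unirradiated arrays and at -2.54 to -0.63 (median -1.36) on the irradiated ones. Every irradiated array was above every unirradiated one, and the 2 unirradiated arrays with liver signal were the higher of the 5. The difference was 4.97 ± 0.36 (adjusted p = 7.7e-10), or 31.3-fold, and 3.70 to 6.15 within slides. Cdkn1a was well above background on 3 of the 5 unirradiated and all 9 irradiated arrays. The size of its rise thus rests in part on signal at background.

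Gdf15, a secreted stress cytokine, was well above background on 1 unirradiated array and on all 9 irradiated ones. Its levels were -10.01, -5.76, -9.02, -9.97 and -7.11 at 0 Gy and -4.98 to -1.61 (median -2.98) at 7 Gy, a rise of 4.98 ± 0.59 (adjusted p = 7.9e-07). Without unirradiated replicates 2 and 5 the rise was 6.52. Phlda3, which restrains the kinase Akt, was above background on all 14 arrays, at -2.24, -3.12, -2.37, -2.29 and -3.07 and 0.05 to 0.73 (median 0.50). It rose by 3.17 ± 0.16 (adjusted p = 2.6e-11), with the smallest SE of these 3. Psrc1, a spindle protein, rose by 2.69 ± 0.29.

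The apoptosis arm moved less as a group: 7 of 14 tested genes rose and 1 fell, with a median of 0.58. Bax, which opens the mitochondrial outer membrane, was at -1.44, -1.14, -1.56, -1.30 and -1.24 at 0 Gy and -0.33 to 0.47 (median 0.19) at 7 Gy. The doses did not overlap, and it rose by 1.49 ± 0.18 (adjusted p = 7.5e-07; 1.23 to 1.62 within slides). Aen, an apoptosis-enhancing nuclease, rose by 1.52 ± 0.20 from -2.84, -2.51, -3.25, -2.88 and -2.55 to -1.92 to -0.83 (median -1.24). Bbc3, the BH3-only protein PUMA, rose by 1.76 ± 0.41 with overlap, since irradiated replicate 3 lay at -2.09 beside unirradiated levels of -2.07, -2.85, -3.04, -2.29 and -2.33. Tnfrsf10b, the death receptor for TRAIL, rose by 2.37 ± 0.24 but was above background on 1 of the 5 unirradiated arrays.

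Regulators of p53 and its kinases went the other way, with 1 of 13 tested genes higher and 9 lower (median -1.17). Mdm2, the ubiquitin ligase that degrades p53 and is itself a p53 target, was the single gene that rose: its levels were -1.57, -1.56, -1.61, -1.51 and -1.10 and -1.52 to -0.41 (median -1.10), and its rise of 0.46 ± 0.18 (adjusted p = 0.041) was not called in 15 of the alternatives. Trp53 fell by 1.28 ± 0.26 (adjusted p = 0.00042), from -5.03, -5.00, -5.28, -4.90 and -4.79 to -7.11 to -5.37 (median -6.35), and was above background on 4 of 9 irradiated arrays. The kinases Atr and Atm, which sense stalled forks and double-strand breaks, were lower by 2.55 ± 0.37 and 2.08 ± 0.39. Atr was above background on 4 of 9 irradiated arrays. Atm was so on none, and its decrease is bounded only as at least 1.76-fold. None of these 13 genes was called lower with the normal-exponential correction (limma; 0 lower at an unadjusted p under 0.05), under which Trp53 changed by 0.34 and Atm by 0.35.

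Among the relatives of Gadd45a, Gadd45g rose by 0.98 ± 0.24, from -2.31, -4.04, -2.57, -2.39 and -2.38 to -2.36 to -1.59 (median -1.82), and Gadd45b fell by 0.72 ± 0.28 (adjusted p = 0.04), and was above background on 8 of 9 irradiated arrays. The call was lost in 20 alternatives, among them median scaling (-0.47, adjusted p = 0.19), quantile normalization (-0.40, adjusted p = 0.28), the 75th percentile of all probes (-0.40) and the normal-exponential correction (0.12). In the Bcl2 family outside the p53 targets 1 of 9 tested genes rose and 4 fell. Bmf, a pro-apoptotic BH3-only protein, fell by 3.37 ± 0.27 with 3 of 9 irradiated arrays above background and was not called with the normal-exponential correction (-0.74). The survival factors Mcl1 and Bcl2l1 fell by 1.14 ± 0.23 and 0.96 ± 0.20. Bcl2l1, an abundant transcript of young red cells, went from 5.01, 4.42, 5.07, 5.04 and 4.38 to a median of 3.84 at 7 Gy with no overlap. Of 23 tested genes used to estimate radiation dose from blood, a list that shares members with those above, 14 rose and 8 fell (median 1.02).

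The promoters of the p53 targets were searched for the p53 response-element decamer on both strands, in the 250 bases before the RefSeq start (GRCm38.p6). It was present in 8 of the 28 targets with a promoter in the table, in 6 of the 18 of them that rose and in 8.20% of 27025 genes. The 3 shown are p53 targets that rose without overlap between doses. Capitals mark the decamer, and a match describes the sequence only.
Cdkn1a (chr17:29090729-29090978, plus strand): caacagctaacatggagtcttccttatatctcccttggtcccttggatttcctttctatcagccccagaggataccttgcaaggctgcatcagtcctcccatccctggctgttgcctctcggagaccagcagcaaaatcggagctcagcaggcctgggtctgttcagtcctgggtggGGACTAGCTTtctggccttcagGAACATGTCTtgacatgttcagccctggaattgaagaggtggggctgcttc
Bax (chr7:45466899-45467148, minus strand): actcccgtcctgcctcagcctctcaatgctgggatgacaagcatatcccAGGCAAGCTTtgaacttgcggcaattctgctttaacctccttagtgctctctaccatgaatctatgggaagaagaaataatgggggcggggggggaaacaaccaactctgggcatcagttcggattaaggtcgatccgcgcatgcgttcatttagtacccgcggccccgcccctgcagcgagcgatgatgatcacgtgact
Aen (chr7:78895808-78896057, plus strand): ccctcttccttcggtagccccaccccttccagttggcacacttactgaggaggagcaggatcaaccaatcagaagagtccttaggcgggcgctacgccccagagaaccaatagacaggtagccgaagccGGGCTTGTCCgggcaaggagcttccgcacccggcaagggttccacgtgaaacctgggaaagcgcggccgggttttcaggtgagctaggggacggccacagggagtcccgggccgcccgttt

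The B cell receptor and surface list had the lowest median change of the 52 lists. All 20 tested genes of the B cell receptor and surface list were lower at 7 Gy, 16 of them without overlap, with a median change of -3.83 that was -4.33 to -3.21 within slides. None was higher. Cd79b, a signalling chain of the receptor, was above background on all 14 arrays: it lay at 2.52, 2.54, 2.33, 2.43 and 2.07 at 0 Gy and at -4.74 to -1.35 (median -2.80) at 7 Gy. The unirradiated arrays were within 0.47 of each other, while the irradiated ones spread over 3.39. It fell by 4.96 ± 0.47 (adjusted p = 3.3e-08), which is 31.2-fold. Its partner Cd79a fell by 5.18 ± 0.68 (8 of 9 irradiated arrays above background), and irradiated replicate 6 was the lowest for both.

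Ms4a1, which encodes CD20, lay at 0.60, 0.98, 0.55, 0.60 and 0.32 and fell by 5.62 ± 0.66 to -7.56 to -2.74 (median -4.97), with 6 of 9 irradiated arrays above background. Tnfrsf13c, through which BAFF keeps B cells alive, fell by 5.97 ± 0.49 from -0.79, -0.24, -0.81, -0.80 and -1.12 to -8.33 to -5.24 (median -7.16), with 2 of the 9 irradiated arrays above background. Fcmr, the Fc receptor for IgM, fell by 5.92 ± 0.42 and Vpreb3, a chaperone of the receptor chains, by 5.89 ± 0.37, with 6 of 9 and 5 of 9 above background. Fcer2a, the low-affinity IgE receptor CD23, was above background on all 5 unirradiated arrays and on none of the irradiated ones, a decrease of at least 18.2-fold when set against the dimmest signal that counts as detected. Xkrx, a membrane protein of the XK family, likewise gave at least 9.48-fold. Fcrla and Ly6d fell by 5.71 ± 0.37 and 5.26 ± 0.45, with 2 of 9 and 8 of 9 above background. Chst3 was above background on 2 of 9 irradiated arrays and Nsg2 on 1 of 9. The measured level of Chst3 fell by 5.58 ± 0.46 and that of Nsg2 fell by 5.49 ± 0.38, mostly against background. Chst3, Nsg2, Fcer2a and Xkrx were not called with the normal-exponential correction (-1.72, -1.39, -1.59 and -0.95).

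Of 18 B cell transcription factors 15 fell and none rose (median -2.48). Spib and Pou2af1, which B cells need for receptor signalling and germinal centres, fell by 4.95 ± 0.46 and 4.92 ± 0.49, each with 6 of 9 irradiated arrays above background. Bcl11a fell by 4.99 ± 0.39 (2 of 9 above background), and Ebf1, which fixes B cell identity, by 4.33 ± 0.32 (1 of 9). Ebf1 was not called with the normal-exponential correction (-0.76, adjusted p = 0.51). MHC class II genes, used by B cells and other antigen-presenting cells, fell in 10 of 11 cases (median -3.29). H2-Aa, a class II chain above background on all 14 arrays, went from 0.24, 1.84, 0.51, 0.34 and 0.78 to -5.42 to -1.53 (median -2.87), and fell by 3.79 ± 0.43 (adjusted p = 4.2e-07). H2-Oa, which tunes class II loading in B cells, fell by 4.50 ± 0.37 (5 of 9 above background). With the normal-exponential correction 13 of the 20 surface genes, 6 of the 18 factors and 7 of the 11 class II genes were still called lower, and none higher.

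**Figure D3:**
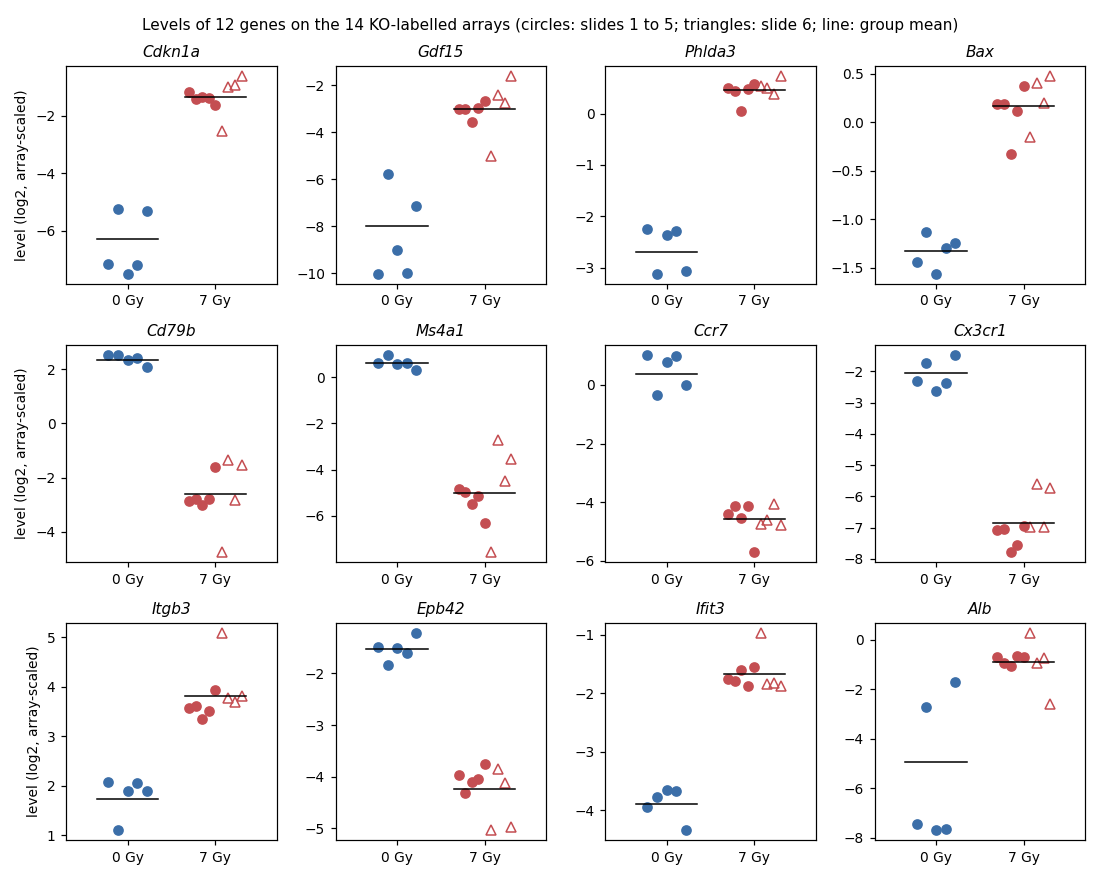
Array-scaled log2 levels of 12 genes on each KO-labelled array at 0 Gy (blue) and 7 Gy (red), with slide 6 as open triangles and group means as lines. Cd79b, Ms4a1, Ccr7 and Cx3cr1 are lower on every irradiated array; Cdkn1a, Gdf15, Phlda3, Bax, Itgb3 and Ifit3 are higher on every one; Alb overlaps through unirradiated replicates 2 and 5.

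Among 14 genes of naive T cells and their homing 13 fell and none rose (median -1.76), against 10 of 20 that fell and 2 that rose in the T cell receptor list (median -0.68). Ccr7, the receptor that leads naive T cells and B cells into lymph nodes, was at 1.03, -0.33, 0.79, 0.99 and -0.02 and fell by 4.93 ± 0.27 (adjusted p = 3.1e-11) to -5.70 to -4.06 (median -4.54), with 8 of 9 irradiated arrays above background. Tcf7 and Lef1, transcription factors of naive T cells, fell by 2.90 ± 0.20 and 2.14 ± 0.28, and Dapl1 by 4.80 ± 0.53. Tcf7 was above background on 6 of 9 irradiated arrays and Dapl1 on 2 of 9. Of the receptor list, Cd3g and Cd2 fell by 1.25 ± 0.21 and 1.28 ± 0.18, and Cd8a by 1.86 ± 0.42 with 2 of 9 irradiated arrays above background. Of 11 tested activation and tolerance genes 2 rose and 2 fell. Cd69, an early activation marker, fell by 2.65 ± 0.30 (6 of 9 above background) and Cd44, carried by memory cells among many others, rose by 1.31 ± 0.20. With the normal-exponential correction Tcf7 (-0.85), Dapl1 (-1.60), Cd3g (-0.86), Cd8a (-0.21) and Cd69 (-0.66) were no longer called.

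Receptors that guide lymphocytes were lower in 8 of 14 cases and higher in none (median -1.62). Ccr6 and Cxcr5, which draw B cells to epithelia and follicles, fell by 5.49 ± 0.33 and 4.98 ± 0.52, with 1 of 9 and 5 of 9 irradiated arrays above background. Gpr183, an oxysterol receptor, was above background on no irradiated array and fell at least 5.23-fold. Of 30 signalling genes of lymphocytes 24 fell and 2 rose (median -0.99). Malt1, a protease that joins antigen receptors to NF-kB, fell by 3.19 ± 0.24 (6 of 9 above background). Prkcb, the kinase upstream of it in B cells, went from -0.50, -0.10, -0.54, -0.36 and -0.10 to -4.11 to -2.67 (median -3.39). It fell by 2.99 ± 0.22 (adjusted p = 8.3e-10) without overlap, and fell by 2.10 with the normal-exponential correction. Malt1 (-0.96) and Gpr183 (-0.30) were not called with it.

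NK cell receptors were lower in 12 of 16 cases and higher in none (median -1.05), but none was called lower with the normal-exponential correction (limma, median 0.17; 0 lower at an unadjusted p under 0.05). Klrd1, the CD94 chain, fell by 1.76 ± 0.25, from -2.85, -2.85, -3.09, -2.90 and -2.68 to -5.52 to -3.89 (median -4.78). Klrg1, a receptor of late-stage NK and T cells, fell by 2.07 ± 0.35 with 2 of 9 irradiated arrays above background, and changed by 0.04 with that correction. The cytotoxic granule list did not move one way, with 3 of 14 genes higher and 4 lower. Gzmb, granzyme B, rose by 0.66 ± 0.18. Gzma fell by 1.28 ± 0.51 (adjusted p = 0.042). The unirradiated arrays lay at 1.45, 0.75, 1.17, 1.40 and 1.57 and irradiated replicate 5 at -3.43, and without that replicate the change was -0.86. The Gzma call was lost in several alternatives. Among them were median scaling (-1.03, adjusted p = 0.12), the 75th percentile of all probes (-0.96, adjusted p = 0.15) and averaging near-identical arrays (adjusted p = 0.063).

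Myeloid genes also split. Neither neutrophil list moved as a block: 3 granule genes rose and 5 fell of 19, and 3 genes of mature neutrophils rose and 7 fell of 18. S100a8, an abundant neutrophil alarmin, was at 3.18, 1.91, 3.28, 3.27 and 3.50 and then 0.94 to 2.61 (median 1.10), and fell by 1.74 ± 0.36, irradiated replicate 6 being the highest. Chil3 and Mmp9, a chitinase-like protein and a gelatinase, fell by 2.01 ± 0.46 and 1.73 ± 0.43, and Prtn3, made by promyelocytes, rose by 2.13 ± 0.44. Prtn3 levels were -7.85, -5.96, -7.37, -8.03 and -5.60 at 0 Gy and -6.58 to -3.15 (median -4.45) at 7 Gy, with overlap. With the normal-exponential correction Mmp9 (-0.41) and Prtn3 (1.27) were not called.

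In the monocyte, macrophage and dendritic cell list 6 of 22 genes rose and 6 fell. Cx3cr1, the fractalkine receptor of patrolling monocytes and NK cells, lay at -2.29, -1.72, -2.63, -2.35 and -1.46 and fell by 4.82 ± 0.36 (adjusted p = 1.1e-09) to -7.78 to -5.61 (median -6.99), with 2 irradiated arrays above background, and was not called with the normal-exponential correction (-1.57). Nr4a1, an orphan nuclear receptor that patrolling monocytes require, fell by 2.36 ± 0.29 and was above background on all 14 arrays, at -1.39, -0.44, -1.62, -1.45 and -0.69 and -4.91 to -2.77 (median -3.38). The largest rise of the list was in Marco, a scavenger receptor of tissue macrophages, by 5.21 ± 0.82. Its levels of -5.02, -2.66, -5.52, -5.27 and 0.68 at 0 Gy and -0.07 to 3.49 (median 2.20) at 7 Gy overlap through unirradiated replicate 5, and without replicates 2 and 5 the rise was 7.38. Of the 11 tissue macrophage genes 8 rose and 2 fell. The part of tissue macrophage RNA in the monocyte values was not tested.

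Eosinophil and basophil genes diverged within their list, in which 3 of 12 rose and 6 fell. Ear2, an eosinophil ribonuclease also made by monocytes, fell by 3.46 ± 0.29 from -0.98, -0.42, -1.24, -0.99 and -0.28 to -4.71 to -3.29 (median -4.30). Siglecf, the lectin that marks eosinophils, fell by 2.88 ± 0.31 with 2 irradiated arrays above background. In the inflammatory lists, 11 of 19 NF-kB and cytokine genes fell and 1 rose. Of 19 Toll-like receptor genes 5 fell and 3 rose, and of 17 immediate-early genes 7 fell and 1 rose. Over all genes tested 34.6% fell and 12.3% rose, and the Toll-like receptor and immediate-early counts lie near or below these shares. Il1b, interleukin 1 beta, fell by 2.38 ± 0.41, from -0.56, -2.24, -0.62, -0.56 and 0.25 to -3.78 to -1.47 (median -3.33), overlapping through unirradiated replicate 2 and irradiated replicate 6. Rel and Tnfaip3, an NF-kB subunit and the brake of that pathway, fell by 2.89 ± 0.23 and 1.66 ± 0.17, with 6 of 9 and 7 of 9 irradiated arrays above background. Tlr1 fell by 3.47 ± 0.38 (3 of 9). Cd14, the endotoxin co-receptor, rose by 1.73 ± 0.42 with overlap, and by 0.49 to 2.53 within slides. The unirradiated Cd14 levels were -4.77, -3.46, -4.84, -4.67 and -2.25, with replicates 2 and 5 the highest. With the normal-exponential correction Rel (-1.02), Tnfaip3 (-0.30), Tlr1 (-0.51) and Siglecf (-0.12) were no longer called.

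Interferon-response genes rose in 21 of 46 cases and fell in 2, with a median change of 0.49 (0.33 to 0.66 within slides). Ifit3, an antiviral tetratricopeptide protein, lay at -3.94, -3.76, -3.65, -3.66 and -4.34 at 0 Gy and at -1.88 to -0.97 (median -1.79) at 7 Gy. No array overlapped, and the rise was 2.21 ± 0.29 (adjusted p = 2.7e-06). Ifit3b, its near-identical neighbour whose probe can pick up the same transcripts, rose by 2.64 ± 0.35. Mx1 rose by 2.14 ± 0.30 and Oas1a, which makes 2-5A and activates RNase L, by 2.10 ± 0.38. For Oas1a irradiated replicate 5 was the exception at -2.24, below all unirradiated arrays but replicate 2. Among 18 class I and immunoproteasome genes 2 rose and 5 fell. B2m, the light chain of class I, rose by 1.02 ± 0.21 and Tap2, a peptide transporter, fell by 0.98 ± 0.20, a call lost with the normal-exponential correction (-0.57).

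The 250 bases before the start of these genes were searched for the interferon-stimulated response element, spelled as GAAA, any 2 bases and GAAA, on both strands. It was present in 18 of the 32 list genes with a promoter in the table and in 3.46% of 27025 genes. Of the 12 list genes with a promoter that rose 6 held it, and of the 18 that were not called 11 did. The 3 promoters shown belong to the named interferon genes that rose most and hold the element, in capitals.
Ifit3 (chr19:34583279-34583528, plus strand): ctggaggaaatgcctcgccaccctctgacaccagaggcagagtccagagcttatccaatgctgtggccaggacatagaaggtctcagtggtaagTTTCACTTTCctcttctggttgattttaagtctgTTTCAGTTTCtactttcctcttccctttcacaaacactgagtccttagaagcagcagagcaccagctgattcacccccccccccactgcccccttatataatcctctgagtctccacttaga
Ifit3b (chr19:34607707-34607956, plus strand): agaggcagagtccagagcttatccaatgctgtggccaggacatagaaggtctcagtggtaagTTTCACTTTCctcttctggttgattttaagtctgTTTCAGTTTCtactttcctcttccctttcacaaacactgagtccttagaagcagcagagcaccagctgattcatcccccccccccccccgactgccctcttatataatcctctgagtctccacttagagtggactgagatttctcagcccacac
Oas1a (chr5:120907526-120907775, minus strand): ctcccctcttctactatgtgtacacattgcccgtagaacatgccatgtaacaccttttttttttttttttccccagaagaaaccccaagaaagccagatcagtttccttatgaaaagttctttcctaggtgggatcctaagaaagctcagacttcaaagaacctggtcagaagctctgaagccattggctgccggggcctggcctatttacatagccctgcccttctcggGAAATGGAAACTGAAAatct
In Ifit3 and Ifit3b the element stands at 2 places in reverse orientation, with the same letters, and in Oas1a 2 copies overlap next to the start, beginning 20 and 14 bases before it.

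Platelet genes rose together. Of 20 adhesion receptors 16 rose and 2 fell (median 1.60), and of 30 granule and cytoskeleton genes 25 rose and none fell (median 1.52), with within-slide medians of 0.89 to 2.11 and 0.79 to 1.96. Itgb3, the beta 3 chain of the fibrinogen receptor, lay at 2.08, 1.10, 1.90, 2.05 and 1.89 and 3.36 to 5.09 (median 3.70). All irradiated arrays were above all unirradiated ones, replicate 6 highest, and the rise was 2.08 ± 0.23 (adjusted p = 3.7e-07), 4.23-fold. Its partner Itga2b rose by 2.04 ± 0.26, and P2rx1, an ATP-gated channel, by 2.31 ± 0.21. Of the granule genes, Vwf rose by 2.10 ± 0.22, Nrgn by 2.05 ± 0.20 and Ptgs1, the aspirin target, by 1.98 ± 0.24. Since levels are relative to each array's 75th percentile, a rise here is a rise against the other transcripts of the same blood.

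Red cell genes fell in part. Of 18 membrane and skeleton genes 12 fell and 2 rose (median -1.23). Epb42, of the band 3 complex, lay at -1.48, -1.84, -1.50, -1.60 and -1.21 and fell by 2.72 ± 0.27 (adjusted p = 7.4e-08) to -5.04 to -3.74 (median -4.11), and the doses did not overlap. Globin and heme genes were split, 6 up and 6 down of 19. Cpox, of heme synthesis, fell by 2.49 ± 0.22 (6 of 9 irradiated arrays above background, not called with the normal-exponential correction at -0.71) and Ahsp, the chaperone of alpha globin, by 1.53 ± 0.32. Hbb-b1 rose by 1.49 ± 0.42 with overlap, and without unirradiated replicates 2 and 5 none of the 19 was called higher. Erythroid regulators included 4 rises and 6 falls of 17: Epor, the erythropoietin receptor, rose by 2.18 ± 0.22 and Tal1 by 1.68 ± 0.19, both without overlap. Histone transcripts of the replication-dependent clusters rose in 10 of 20 cases and fell in 2. H2bc6 rose by 1.42 ± 0.17, and without unirradiated replicates 2 and 5 the list had 2 rises.

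Splicing factors fell in 26 of 30 cases with 1 rise (median -0.98), DNA repair genes in 20 of 25 with none (-1.16) and replication genes in 21 of 35 with 1 (-0.95). Prpf8, the core of the spliceosome, went from 0.31, 0.70, 0.25, 0.36 and 0.80 to -1.30 to -0.42 (median -0.99), and fell by 1.39 ± 0.17 (adjusted p = 7.9e-07); it fell by 1.37 with the normal-exponential correction. Hnrnpk fell by 1.57 ± 0.29. Parp1, which detects strand breaks, fell by 3.25 ± 0.52 with 3 of 9 irradiated arrays above background. Pold1, Cdt1 and Mcm4, of the replication fork and origin licensing, fell by 2.34 ± 0.24, 1.91 ± 0.15 and 1.89 ± 0.30, with 6 of 9, 9 of 9 and 8 of 9 irradiated arrays above background. Hnrnpk (-0.70), Parp1 (-0.49), Pold1, Cdt1 (-0.86) and Mcm4 (-0.82) were not called with the normal-exponential correction. With that correction 3 splicing, 1 repair and 0 replication genes remained called lower (limma; 3 replication genes lower at an unadjusted p under 0.05). Mitosis genes fell in 6 of 17 cases with no rise, close to the background, and Nusap1, of the spindle, fell by 1.99 ± 0.33.

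Of 23 aminoacyl-tRNA synthetases and ATF4 targets 17 fell and 1 rose (median -1.26). Asns, asparagine synthetase, was at -1.23, -2.70, -1.27, -1.29 and -1.26 and fell by 3.45 ± 0.28 (adjusted p = 3.6e-09) to -6.04 to -4.50 (median -4.89), with 8 of 9 irradiated arrays above background. Slc7a5, the leucine transporter, fell by 2.25 ± 0.27. Ribosomal protein genes fell in 20 of 48 cases and rose in 5: Rpl4 and Rps3 fell by 1.13 ± 0.14 and 1.11 ± 0.17 without overlap, and Rpl35 rose by 1.38 ± 0.38. Without unirradiated replicates 2 and 5 none of the 48 was called higher. Oxidative phosphorylation (3 up and 9 down of 35) and proteasome genes (1 and 12 of 31) lay near or below the background share. Ndufs1, of complex I, fell by 1.51 ± 0.16 and was not called with the normal-exponential correction (-0.72).

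Stress and metabolic lists gave mixed calls. NRF2 and antioxidant genes rose in 6 and fell in 7 of 20, Srxn1 rising by 1.83 ± 0.21 and Gpx4, which protects lipids from peroxidation, by 1.54 ± 0.15. Both did so without overlap. Chaperones rose in 2 and fell in 7 of 15, and Hspb1 rose by 2.95 ± 0.47. Glucocorticoid-induced genes rose in 4 and fell in 7 of 14: Mt1, a metallothionein, rose by 2.74 ± 0.36 and Per1, also a clock gene, fell by 1.37 ± 0.24, not called with the normal-exponential correction (-0.51). Clock genes rose in 1 and fell in 4 of 10. Lysosome genes rose in 9 and fell in 7 of 25, with Ctsd, cathepsin D, up by 1.52 ± 0.17. Cholesterol synthesis genes rose in 1 and fell in 6 of 13, fatty acid genes in 1 and 3 of 14, and glycolysis genes in 4 and 2 of 17. Lists with mixed calls depended on the scaling. With the 75th percentile of all probes there were 11 rises and 10 falls among cytosolic ribosomal proteins, 9 and 3 in oxidative phosphorylation and 5 and 3 in MHC class I and immunoproteasome. Rises also outnumbered falls there in the cytotoxic granule, NRF2, glucocorticoid and fatty acid lists.

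Of the lists for other tissues, those of liver, tissue macrophages, and endothelium and fibroblasts held more rises than falls, and those of heart muscle and lung did not. Hepatocyte genes rose in 25 of 36 cases and fell in none (median 2.47), and acute phase genes rose in 7 of 14 and fell in 1 (median 2.08). Alb, serum albumin, lay at -7.46, -2.73, -7.71, -7.67 and -1.72 and -2.59 to 0.29 (median -0.74). Unirradiated replicates 2 and 5 were far above the other 3 and overlapped the irradiated range, and the rise was 4.04 ± 0.99 (adjusted p = 0.0019) with them and 6.74 without. The within-slide medians of the hepatocyte list ran from 0.0023 to 4.47. No hepatocyte gene was without overlap, against 23.9% of all genes. Saa2 and Saa1, acute phase apolipoproteins, did not overlap and rose by 5.69 ± 0.71 and 3.27 ± 0.44. Saa3, made outside the liver too, rose by 5.11 ± 0.73 with overlap.

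Rarres2, Sult1a1 and Gstt1, which the liver also makes in abundance, rose by 3.69 ± 0.69, 3.40 ± 0.54 and 3.76 ± 0.63. The part of liver RNA in these rises was not tested. Endothelial and fibroblast genes rose in 7 of 11 cases and fell in none (median 0.92). Of 20 heart muscle genes 6 passed the filter on dim probes, 1 of which rose and 1 fell, and of 14 lung genes 6 passed, with 1 rise and 2 falls. Myh6, Nppa, Actc1 and Myl7, which define heart muscle, were not among those that passed.

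**Figure D4:**
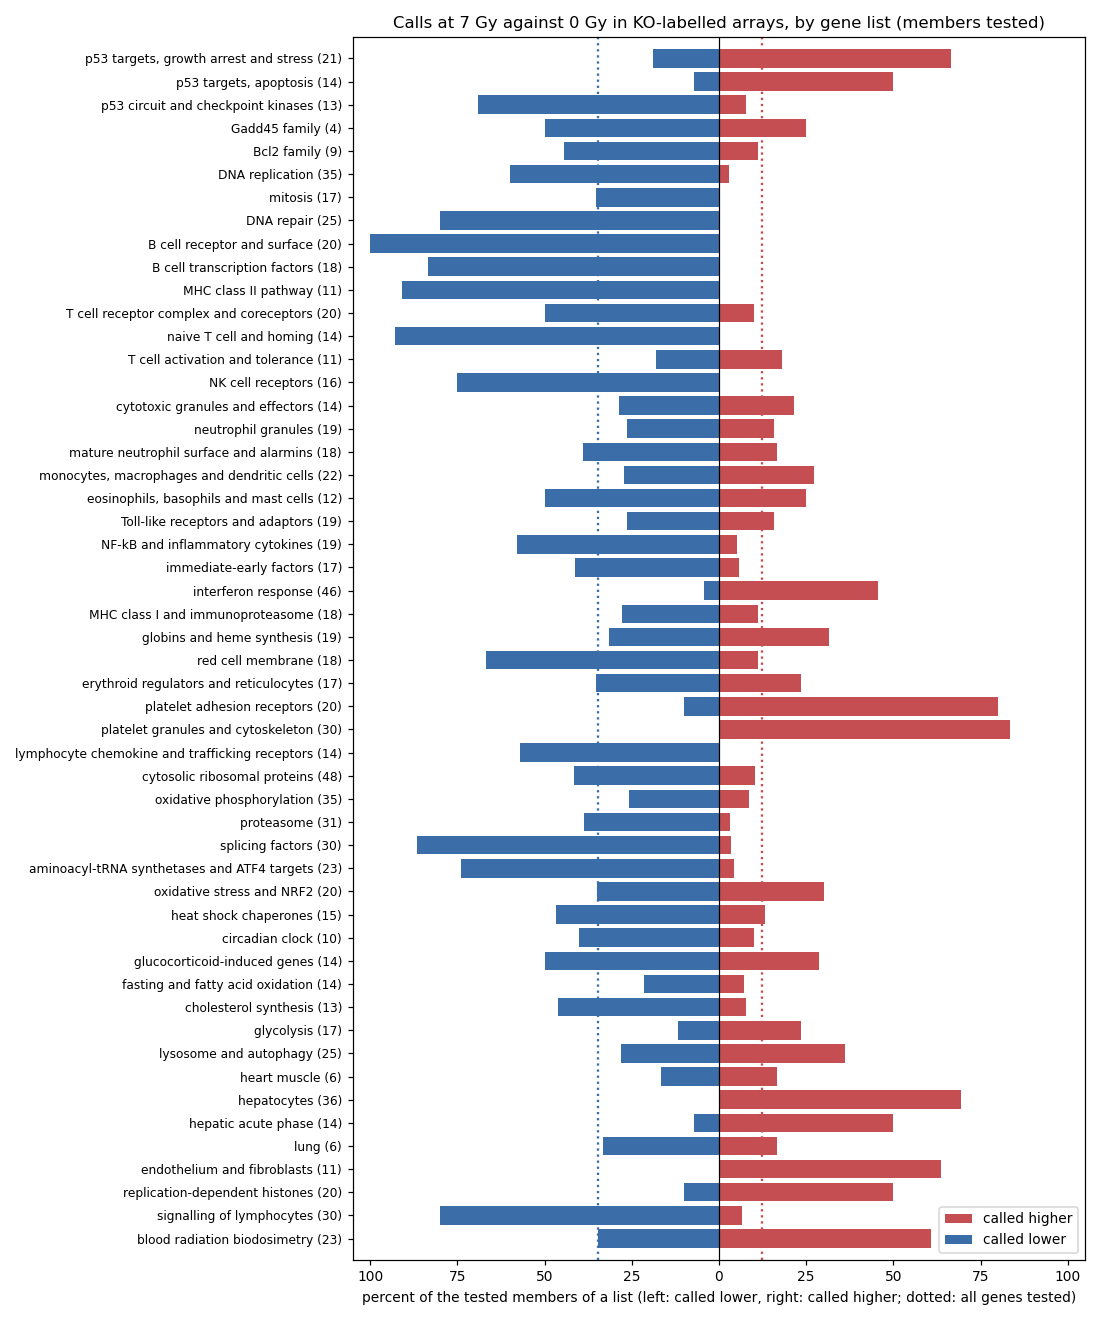
Percent of the tested members of each gene list called lower (blue, to the left) and higher (red, to the right) at 7 Gy in KO-labelled arrays, with the number tested in parentheses and dotted lines at the share of all genes tested (34.6% lower, 12.3% higher). B cell, class II, naive T cell, splicing, repair and p53 circuit lists lie left of the line for lower calls. The p53 target, platelet, hepatocyte and interferon lists lie right of the line for higher calls.

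How far the 2 genotype labels differed in their response was tested with an interaction term, the KO-labelled change minus the WT change. It was called for 2380 genes (15.1%): the response was higher in KO-labelled arrays for 504 and lower for 1876. The count depended on the processing. Averaging near-identical arrays left 37, the normal-exponential correction left 0 (limma; 915 at an unadjusted p under 0.05), and leaving out unirradiated KO-labelled replicates 2 and 5 left 470. At 0 Gy, 46 genes (0.291%) differed between the labels.

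The decreases of B cell receptor and surface genes were mostly not called different. Cd79b differed by -0.08 ± 0.68 between the responses (adjusted p = 0.95), and 1 of the 20 surface genes was called different. Of the 18 B cell transcription factors 4 were called lower in the KO-labelled response and none higher. The median change of that list was -2.48 in KO-labelled and -1.65 in WT arrays. Of the p53 targets, Phlda3 rose more in KO-labelled arrays by 0.95 ± 0.24 (adjusted p = 0.012), whereas the difference for Cdkn1a was 1.495 ± 0.52 (adjusted p = 0.054). In the growth arrest and stress list the difference was called higher for 1 of 21 genes and lower for 3. In the apoptosis list it was called higher for 0 of 14 and lower for 1. The medians of these 2 lists were 1.74 and 0.58 in KO-labelled and 1.97 and 0.83 in WT arrays. For interferon genes the difference was called lower for 22 of 46 and higher for none. Ifit3 rose by 2.21 ± 0.29 in KO-labelled and by 5.61 ± 0.31 in WT arrays (difference -3.39 ± 0.42, adjusted p = 0.00022).

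Of 16 NK receptors 13 were called lower in the KO-labelled response and none higher. In each myeloid list more genes were called lower than higher. The calls were 2 higher and 3 lower of 19 neutrophil granule genes, and 0 and 6 of 18 of mature neutrophils. They were 1 and 3 of 22 monocyte, macrophage and dendritic cell genes, and 1 and 5 of 12 of eosinophils, basophils and mast cells. Over all 15783 genes the difference was called higher for 504 and lower for 1876. Il1b and Mmp9 changed by 0.25 ± 0.43 and 1.16 ± 0.45 in WT arrays, and the differences were -2.64 ± 0.59 and -2.89 ± 0.62. Siglecf changed by 0.17 ± 0.32 in WT arrays (difference -3.06 ± 0.45, adjusted p = 0.00058). For platelet genes the difference was called higher for 16 of 50 and lower for none. Cnn1, a calponin of smooth muscle, rose in KO-labelled arrays by 2.87 ± 0.23 and in WT arrays by 0.20 ± 0.25 (difference 2.68 ± 0.34, adjusted p = 0.00022). The labels already differed for Cnn1 at 0 Gy, by -2.35 ± 0.26 (adjusted p = 0.00011), whereas the mean levels at 7 Gy were -3.66 in KO-labelled and -3.98 in WT arrays. Asns and Cpox, whose responses were also called different, differed at 0 Gy too, by 1.98 ± 0.31 and 1.15 ± 0.25 (limma, adjusted p = 0.0048 and 0.049). Lrrc8b, a subunit of volume-regulated channels, and Armcx6 differed by 1.54 ± 0.47 and 1.16 ± 0.32. The differences for Alb and Saa2 were -5.38 ± 1.44 and -5.15 ± 1.03, and the hepatocyte mean on the unirradiated KO-labelled arrays moved by as much as 3.59 between replicates.

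**Figure D5:**
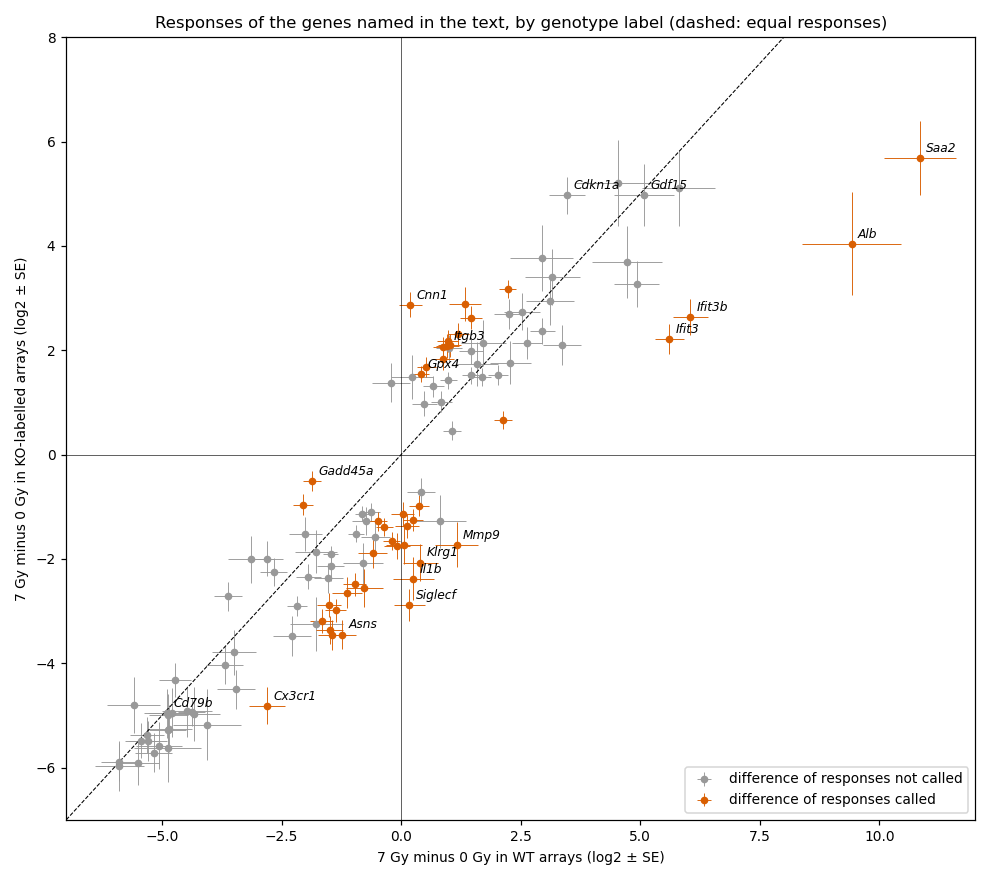
Change at 7 Gy in WT arrays (horizontal) and in KO-labelled arrays (vertical) of the genes named in the text, in log2 with SE bars, and coloured where the difference between the responses was called. Cd79b lies on the dashed line of equal change. Ifit3, Ifit3b, Saa2 and Alb lie below it, and Cnn1 above it.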

How the data were processed

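Mouse blood RNA was hybridised to 24 Agilent one-colour (Cy3) arrays. Per the file headers, the authors deposited scanner output of Agilent Feature Extraction (version 12.0.2, per the submitters' processing notes), whose processed intensity is background-subtracted, with probe positions in mm9. A deposited log2 value table of 12900 probes was used as an alternative: it equals the log2 of the processed signal, floored at 10, plus a shift per array of up to 1.54, its column medians were 5.75 to 7.18, and it is neither centred nor a ratio.

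Control and outlier-flagged spots were removed, repeated spots averaged, and log2 intensities scaled to each array's 75th percentile. Probes well above background on 5 or more arrays were kept (19648 of 39429), and a gene was represented by its probe of highest mean level (15783 genes). Names came from RefSeq accessions (29094 probes), symbols (2975), older symbols (137) or the files (7223). One linear model over 4 groups and 23 samples was fitted with limma 3.58.1 in R 4.3.3, with p-values adjusted by Benjamini-Hochberg. The number of arrays limits the precision.

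The genes named follow a rule: the 15 largest called changes each way among genes with a proper symbol, above background on every array of 1 or both groups and without overlap; up to 4 called members of each of 52 lists with the largest change; and always Gadd45a, Cdkn1a, Mdm2, Trp53 and Phlda3. The text gives 116 of these 213, and some others are not reported here. The members and lists were chosen with earlier results of these data known, and the 116 after their values were seen. Replicates 1 to 5 share slides 1 to 5 across groups but were not taken as pairs. Deviations of same-numbered KO-labelled arrays from their group means correlated at -0.05 to 0.70, and those of differently numbered ones at -0.51 to 0.20. Some slides may thus share a deviation, and counts with the slide as a block are given below. On simulated arrays with 200 of 15711 genes changed, the model called 37 of 50 genes raised by 2 (log2) and 18 of 50 raised by 1, and 1 unchanged gene. The simulated noise was independent between arrays, and far fewer genes changed than the 46.9% called here. These rates therefore do not carry over to the real arrays. P-values measure the spread between these arrays. Figures were drawn with matplotlib 3.10.9.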

Additional observations from a re-analysis of the deposited data

Results flagged for a closer look

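A single array lay apart from the rest of its dose group in 33 of 232 gene and dose groups tested (Dixon's test at the 95% level, 4 samples at 0 Gy, 9 at 7 Gy), where chance alone flags about 1 in 20 groups. Of these groups 26 were at 7 Gy and 7 at 0 Gy, with 116 genes tested at each dose. The share at 0 Gy thus lies near 1 in 20. On unirradiated replicate 2 this was so for Gadd45g at -4.04, Cpox at -3.61, Rps3 at 2.43, Ndufs1 at -2.02 and Asns at -2.7. On unirradiated replicate 5 this was so for Mdm2 at -1.1 and Chil3 at 2.74. On irradiated replicate 3 this was so for Phlda3 at 0.0468, Bbc3 at -2.09 and Cd8a at -4.84. On irradiated replicate 5 this was so for Ccr7 at -5.7, Gzma at -3.43, Oas1a at -2.24, Mcm4 at -6.09 and Psrc1 at -2.2. On irradiated replicate 6 this was so for Ifit3b at -2.45, Armcx6 at -2.24, Ly6d at -6.13, Cd79b at -4.74, Spib at -8.01, H2-Aa at -5.42, Lef1 at -2.19, S100a8 at 2.61, Il1b at -1.47, Nr4a1 at -4.91, Ifit3 at -0.967, P2rx1 at 2.68, Itgb3 at 5.09 and Vwf at 4.46. On irradiated replicate 9 this was so for Bcl2l1 at 2.82, Sult1a1 at 0.00494, Saa1 at 3.23 and Alb at -2.59.

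The response to 7 Gy differed between the KO-labelled and WT arrays (interaction term, limma, adjusted p under 0.05) for 43 of the named genes, given here as the KO-labelled response minus the WT response. It was higher for Gadd45a (1.36), Phlda3 (0.949) and Bcl2l1 (1.09) of the Gadd45, p53 and Bcl2 groups. Platelet and erythroid genes with a higher response were P2rx1 (1.11), Itgb3 (1.11), Vwf (1.08), Nrgn (1.17), Epor (1.21) and Tal1 (1.15). Of the other genes it was higher for Lrrc8b (1.54), Cnn1 (2.68), Armcx6 (1.16), Srxn1 (0.954) and Gpx4 (1.12). It was lower for the stress and survival genes Atr (-1.78), Bmf (-1.87), Mcl1 (-1.17), Asns (-2.22), Mcm4 (-1.29), Prpf8 (-1.04), Per1 (-1.48) and Cpox (-1.51). Lymphocyte genes with a lower response were Cd2 (-0.792), Cd3g (-1.5), Cd69 (-1.51), Malt1 (-1.52), Prkcb (-1.61), Klrg1 (-2.47), Klrd1 (-1.67) and Gzmb (-1.47). Myeloid and inflammatory genes with a lower response were Mmp9 (-2.89), S100a8 (-1.79), Il1b (-2.64), Cx3cr1 (-2.02), Ear2 (-2.02), Siglecf (-3.06), Rel (-1.38) and Tnfaip3 (-1.46). Interferon, class I and liver genes with a lower response were Ifit3b (-3.41), Ifit3 (-3.39), Tap2 (-1.35), Saa2 (-5.15) and Alb (-5.38). Over all genes such a difference was called for 2380, and for 37 with near-identical arrays averaged.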

How the results depend on the processing

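The counts for 7 Gy against 0 Gy in KO-labelled arrays, 1949 higher and 5456 lower, became 806 and 576 with the normal-exponential correction, whose offset of 50 compares with 75th-percentile signals of 25.8 to 107. They became 3058 and 3494 when the 75th percentile was taken over all probes, 1220 and 2642 among the 6753 genes above background on all arrays (fewer genes tested) and 654 and 2192 when tested against a 1.5-fold change. Increases numbered 3512 with the slide as a block, 3871 with the replicate block and 4362 with array weights. The decreases there were 5986, 6239 and 6750. With the near-identical arrays of each group averaged, 1545 genes were called higher and 4606 lower. Of all calls the increases made up 26.3%, 58.3% with the normal-exponential correction, 46.7% with all probes, 39.6% with median scaling, 38.8% with quantile normalization, 37.0% with the slide block, 38.3% with the replicate block and 39.3% with array weights. Replicate numbers do not all pair the samples, so the block is given only here. Leaving out each KO-labelled array in turn gave 1708 to 2024 increases and 4796 to 5802 decreases. Without unirradiated replicates 2 and 5, 1304 of the 1949 increases and 3637 of the 5456 decreases were still called, and without slide 6, 1696 and 5155.

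The difference between the responses, 504 genes higher and 1876 lower, gave 783 and 1139 with median scaling, 889 and 582 with all probes, 744 lower with quantile normalization, 1112 lower on probes above background on all arrays, 159 and 831 without the filter, 1740 and 3390 with the slide block, 2344 and 4002 with the replicate block, 3171 and 5135 with array weights, 223 and 1128 without noisy arrays, 1 and 36 with near-identical arrays averaged, 0 and 0 with the normal-exponential correction (915 at an unadjusted p under 0.05), 39 and 431 without unirradiated replicates 2 and 5 and 981 and 3244 without slide 6, the last 2 chosen after seeing the data. Leaving out each KO-labelled array gave 265 (without unirradiated replicate 5) to 786 (without irradiated replicate 9) higher and 1099 to 2780 lower, from the same 2 arrays, and 315 higher without unirradiated replicate 2. The causes were not tested.

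Among the named genes 3764 values kept direction and call, 107 lost the call, and 4 changed sign, all with the normal-exponential correction: Gadd45b (0.12), Trp53 (0.34), Atm (0.35) and Klrg1 (0.036). Between 25.9% and 51.4% of probes were well above background on a KO-labelled array, and decreases into the background are bounds only.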

Other observations

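Probes with a run of dinucleotide repeats moved by the repeat they carry. This was seen in the data and the groups were then made, so the counts describe and do not test. Of 51 genes whose probe holds 6 CA units in a row 43 were called higher at 7 Gy in KO-labelled arrays and none lower, with a median change of 1.94. Of 97 genes whose probe holds 6 TG units, the complement, 94 were called lower and none higher, with a median of -1.51. The corresponding medians in WT arrays were 0.81 and -0.42. For 17 genes with 6 GA units the median was 1.10, with 11 called higher and none lower, and for 15 genes with 6 TC units it was -0.26, with none called. The mean level of the CA probes was -2.23 to -0.69 on the unirradiated and -0.50 to 1.21 on the irradiated KO-labelled arrays, without overlap, and that of the TG probes was -1.13 to 0.11 and -3.33 to -1.62. Without the CA and TG probes 1906 genes were called higher and 5369 lower. In the lists above, Itgam and Cat are represented by a CA probe, and Ung, Tnfrsf9 and Dmtn by a TG probe.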
